A study of Mus musculus with 9 samples.

Results

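The 10 genes described here are Atf3, Fos, Fosb, Jun, Junb, Egr1, Ier2, Ier3, Klf4 and Dusp1. They were chosen by symbol from a deposited expression table of 56748 genes, in which each symbol matched 1 gene. Whole hearts of mouse pups at postnatal day 1 (P1) were profiled by RNA sequencing in 9 libraries. Of these, 3 carry the label of a whole-body Cd36 knockout (CD36KO), 3 that of a cardiac specific knockout (CD36CKO) and 3 that of wild type (WT). Cd36 encodes a membrane transporter of long-chain fatty acids. The sources used here give no Cre driver for CD36CKO, no strain and no number of animals per library, so the p-values measure the spread between libraries, which may be technical. The level is FPKM, fragments normalised to gene length and to library size.

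Between 14408631 and 20725356 reads lay behind each library. Cd36 was at 60.6 to 72.4 FPKM in CD36KO, 163 to 201 FPKM in the libraries labelled CD36CKO and 125 to 163 FPKM in WT. The cardiac specific label is therefore not borne out by the whole-gene level, and every direction drawn from the libraries labelled CD36CKO rests on the label. That level cannot show a deleted exon or separate cardiomyocytes from other cells. In CD36KO it was below that of every WT library but well above 0, so by itself it does not show a complete loss. All 8 cardiomyocyte markers were measured, none was at 0, and they summed to between 10346 and 18013 FPKM per library. Ddx3y, a Y-linked gene, was above 1 FPKM in CD36KO 3 (9.72) and CD36CKO 3 (6.19) alone. Xist, an X-linked gene, was at 0.317 FPKM in CD36KO 3 and 0.160 FPKM in CD36CKO 3, against 12.3 to 25.8 FPKM in the others. No WT library was of this kind, so both comparisons with WT are unbalanced in sex-linked expression. CD36CKO 3 also stood apart in skeletal muscle transcripts, with a sum of 3589 FPKM over 9 markers, against 386 to 768 FPKM in the other 8 libraries. In whole-heart RNA, fewer cells of a type and less RNA per cell cannot be told apart.

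Immediate early genes are transcribed within minutes of a stimulus without new protein synthesis, because the factors that switch them on, among them serum response factor with its ternary complex partners and CREB, are already present and are activated by kinases. Many encode transcription factors that act on a second wave of genes. Fos and Jun proteins pair through leucine zippers to form AP-1, Atf3 belongs to the same class of basic leucine zipper proteins and often represses, and Dusp1 ends the signal by removing phosphate from the MAP kinases. In the heart these genes are known to respond to stretch, pressure load and injury, and in tissue in general to handling.

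Promoter sequences were matched for 8 of the 10 genes in RefSeq (GRCm38.p6). The windows of the 3 genes that passed the test in at least 1 comparison below are shown, as the 250 bases before the annotated start, read 5′ to 3′ in the direction of the gene. Capitals mark the cAMP response element half-site TGACG or its reverse complement CGTCA, the core to which CREB and ATF proteins bind. The Atf3 window is chr1:191183334-191183583 on the minus strand, the Klf4 window chr4:55532476-55532725 on the minus strand and the Dusp1 window chr17:26508473-26508722 on the minus strand.
Atf3: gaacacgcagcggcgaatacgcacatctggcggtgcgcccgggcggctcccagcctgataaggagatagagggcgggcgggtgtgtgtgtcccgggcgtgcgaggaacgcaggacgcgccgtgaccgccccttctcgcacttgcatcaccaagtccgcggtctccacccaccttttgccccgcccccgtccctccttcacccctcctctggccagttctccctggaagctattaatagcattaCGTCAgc
Klf4: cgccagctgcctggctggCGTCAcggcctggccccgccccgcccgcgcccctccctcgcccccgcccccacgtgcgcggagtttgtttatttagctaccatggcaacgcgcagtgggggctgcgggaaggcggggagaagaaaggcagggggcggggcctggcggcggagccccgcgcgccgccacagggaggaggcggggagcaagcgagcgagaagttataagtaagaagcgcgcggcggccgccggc
Dusp1: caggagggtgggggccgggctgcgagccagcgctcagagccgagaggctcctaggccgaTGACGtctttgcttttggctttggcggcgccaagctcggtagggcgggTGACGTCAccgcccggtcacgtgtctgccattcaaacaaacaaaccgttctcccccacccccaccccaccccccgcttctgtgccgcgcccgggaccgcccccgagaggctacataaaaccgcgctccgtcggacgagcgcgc
The capitals lie at -7 to -3 in Atf3 and at -232 to -228 in Klf4, counted from the first base before the start as -1. Dusp1 holds a half-site at -191 to -187 and the full element TGACGTCA, which is 2 overlapping half-sites, at -143 to -136. The half-site was found on either strand in 6 of the 8 windows used (Atf3, Dusp1, Fos, Fosb, Junb and Klf4). It was in 17.8% of all 32851 RefSeq windows of the same length. The full element was in 1 of the 8 and in 1.55% of all. The TATA letters TATAAA were in 1 of the 8 (Fos) and in 12.4% of all, on either strand. The AP-1 letters TGANTCA were in 0 of the 8 and in 6.75% of all. A CArG box, the element of serum response factor, was in 0 of the 8 and in 1.47% of all. Egr1 was not among the 8, and bases further than 250 before the start were not searched. A count of 0 here therefore does not show that these genes lack the element. These matches describe letters in a window and say nothing of binding. Coordinates of the deposited table are of another numbering, with the build not stated, and are given apart below.

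In WT hearts the 10 genes spanned a wide range of levels. Ier2 had the highest mean level, 35.1 ± 7.51 FPKM (SD, n = 3), followed by Jun at 24.0 ± 11.1, Ier3 at 23.1 ± 3.98, Dusp1 at 14.7 ± 3.36, Junb at 8.05 ± 2.91, Klf4 at 7.81 ± 3.48, Atf3 at 7.43 ± 3.07, Egr1 at 4.79 ± 1.39 and Fos at 2.32 ± 1.01 FPKM. Fosb was lowest at 0.136 ± 0.0835 FPKM. In this order the WT libraries of neighbouring genes overlapped from Ier2 to Ier3 and from Junb to Fos. They did not overlap between Ier3 and Dusp1, between Dusp1 and Junb or between Fos and Fosb. Ier2 lay above 88.7% of the 12206 tested genes and Fos above 23.0%. A gene was tested where its mean over the 9 libraries was at least 1 FPKM, which kept 9 of the 10 genes and left out Fosb.

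**Figure D1:**
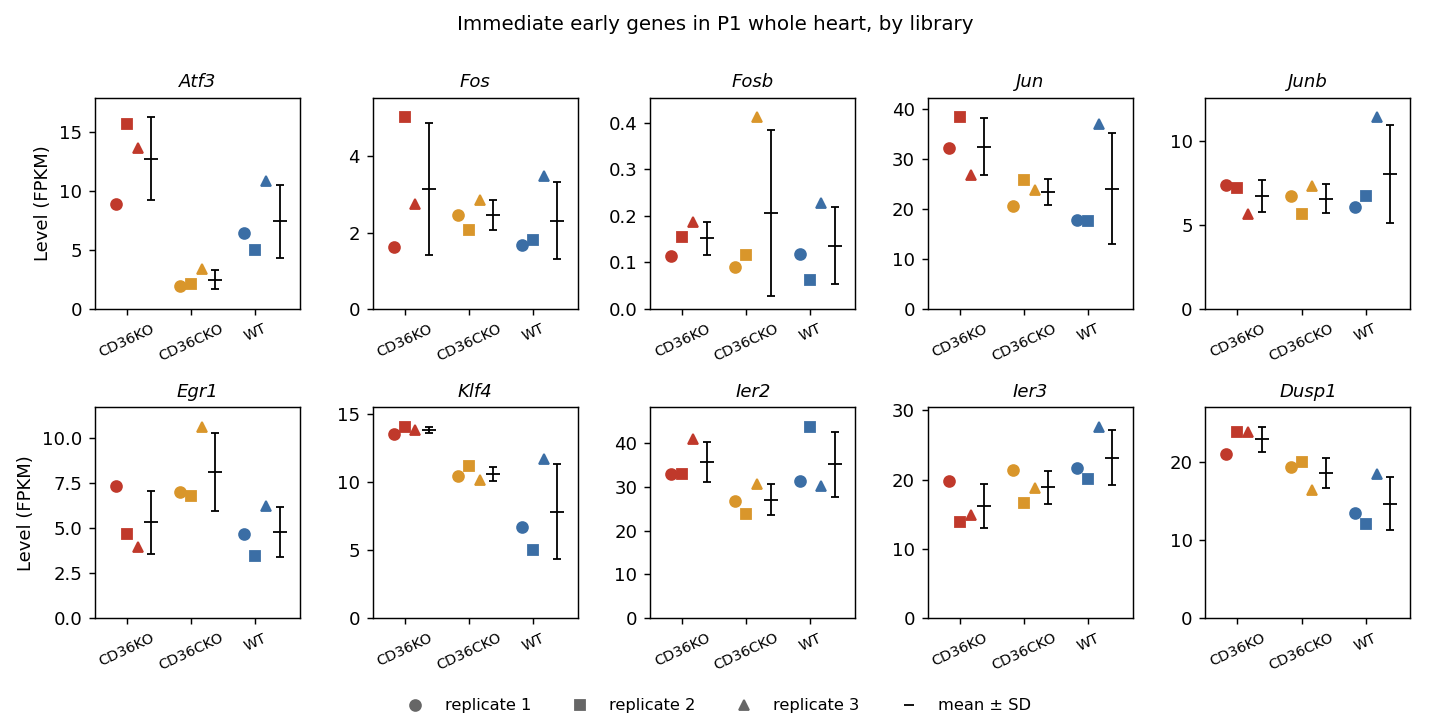
Level of each of the 10 genes in FPKM (linear axis from 0, 1 scale per panel) in CD36KO, the libraries labelled CD36CKO and WT, with 1 symbol per library and the mean ± SD beside each group. Atf3 separates the libraries labelled CD36CKO (1.95 to 3.39 FPKM) from all others, and WT 3 lies above WT 1 and WT 2 in every panel but Ier2.

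Atf3 (ENSMUSG00000026628, chromosome 1, 190902493 to 190950236, minus strand) differed most between genotypes. Its level was 8.87, 15.7 and 13.7 FPKM in CD36KO 1 to 3 (400, 528 and 506 reads), 1.95, 2.12 and 3.39 FPKM in CD36CKO 1 to 3 (89, 107 and 122 reads) and 6.44, 4.98 and 10.9 FPKM in WT 1 to 3 (280, 192 and 430 reads). The 3 libraries labelled CD36CKO lay below the other 6, while CD36KO and WT overlapped, since CD36KO 1 was below WT 3. The mean in CD36KO was 5.13 times the mean in the libraries labelled CD36CKO, a difference of 1.97 in log2(FPKM + 1) (SE 0.28, 95% confidence interval 1.35 to 2.59, adjusted p = 0.0103). By p this ranked 44 and by size 13 among the 12206 genes tested in that comparison.

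Against WT, Atf3 fell in the libraries labelled CD36CKO to 2.49 ± 0.786 FPKM, against 7.43 ± 3.07 FPKM in WT, a log2 difference of -1.24 (SE 0.28, adjusted p = 0.0224). In CD36KO it averaged 12.7 ± 3.51 FPKM, a log2 difference from WT of 0.73 (SE 0.28, interval 0.11 to 1.35) that did not pass the test (adjusted p = 0.110). The call between both knockout labels was lost without CD36KO 3 (1.90, adjusted p = 0.0513) and without both libraries with Y-linked expression (2.08, adjusted p = 0.0589). The difference itself stayed near the 1.97 of all 9 libraries. Calls over all tested genes in this comparison fell from 553 to 29 and 48 in these settings. The call of the fall against WT was lost without WT 1 (adjusted p = 0.05002), CD36CKO 1 (0.0695) or CD36CKO 2 (0.0884). It was also lost without the Y-linked libraries (0.0560), with no filter (0.0733) and with mitochondrial and haemoglobin genes removed (-1.03, 0.0603). Leaving out 1 library, the size of this fall ranged from -1.45 to -0.96. Without WT 3 the difference of CD36KO from WT passed at 1.01 (0.0203).

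Of the 4 AP-1 genes Fos, Fosb, Jun and Junb, the 3 that were tested did not pass in any comparison. Fos (ENSMUSG00000021250, chromosome 12, 85520664 to 85524047, plus strand), the inducible partner that cannot pair with itself, was at 1.62, 5.02 and 2.74 FPKM in CD36KO, 2.45, 2.07 and 2.85 FPKM in the libraries labelled CD36CKO and 1.66, 1.81 and 3.48 FPKM in WT. CD36KO held both the highest and the lowest of the 9 values, so all 3 groups overlapped. The log2 differences were 0.27 for CD36KO against WT (interval -0.37 to 0.92, adjusted p = 0.553), 0.09 for the libraries labelled CD36CKO against WT (-0.55 to 0.74, 0.844) and 0.18 for CD36KO against the libraries labelled CD36CKO (-0.47 to 0.83, 0.765). Fosb (ENSMUSG00000003545, chromosome 7, 19036621 to 19043976, minus strand), a close relative of Fos, rested on 7 to 43 reads per library and was not tested. Its level was 0.115, 0.154 and 0.186 FPKM in CD36KO, 0.0908, 0.116 and 0.412 FPKM in the libraries labelled CD36CKO and 0.119, 0.0627 and 0.227 FPKM in WT, with overlap of all groups and the highest value in CD36CKO 3.

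Jun (ENSMUSG00000052684, chromosome 4, 94937271 to 94940459, minus strand), which pairs with Fos proteins or with itself, was at 32.1, 38.3 and 26.9 FPKM in CD36KO, 20.6, 25.8 and 23.7 FPKM in the libraries labelled CD36CKO and 17.7, 17.5 and 36.9 FPKM in WT. Every CD36KO library was above every library labelled CD36CKO (log2 difference 0.45, interval -0.13 to 1.03, adjusted p = 0.350), and WT 3 lay among the CD36KO values. The difference of CD36KO from WT was 0.49 (SE 0.26, adjusted p = 0.235). Without WT 3 it was 0.83 and passed (adjusted p = 0.00882). Junb (ENSMUSG00000052837, chromosome 8, 85701113 to 85705347, minus strand), a weaker activator than Jun in most settings, was at 7.37, 7.19 and 5.63 FPKM in CD36KO, 6.74, 5.63 and 7.31 FPKM in the libraries labelled CD36CKO and 6.05, 6.71 and 11.4 FPKM in WT. The 3 groups overlapped, with log2 differences from WT of -0.19 in CD36KO and -0.22 in the libraries labelled CD36CKO, and both turned positive without WT 3 (0.06 and 0.03). Between CD36KO and the libraries labelled CD36CKO the difference was 0.03, and it took either sign as single libraries were left out. Junb overlaps Prdx2 on the opposite strand, which was at 136 to 243 FPKM, and Jun overlaps the antisense transcript Junos at 0.127 to 0.340 FPKM. Whether the reads were counted by strand is not given in the sources used here, so the Junb values are uncertain.

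Of the zinc finger factors, Klf4 rose in CD36KO and Egr1 did not pass in any comparison. Klf4 (ENSMUSG00000003032, chromosome 4, 55527143 to 55532466, minus strand), known from pluripotent stem cells and from vascular endothelium, was at 13.6, 14.1 and 13.8 FPKM in CD36KO, 10.4, 11.2 and 10.2 FPKM in the libraries labelled CD36CKO and 6.69, 5.02 and 11.7 FPKM in WT. The CD36KO libraries lay above the other 6 and within 1.04-fold of each other, whereas WT 3 was 2.33 times WT 2 and above every library labelled CD36CKO. The log2 difference of CD36KO from WT was 0.82 (SE 0.22, adjusted p = 0.0407), and that of the libraries labelled CD36CKO from WT was 0.47 (interval -0.03 to 0.96, adjusted p = 0.173). The Klf4 call for CD36KO was lost on leaving out any library except WT 3, at an adjusted p between 0.0558 and 0.115, and without WT 3 Klf4 passed in CD36KO (1.12, 0.00211) and in the libraries labelled CD36CKO (0.77, 0.00436).

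Egr1 (ENSMUSG00000038418, chromosome 18, 34992876 to 34998037, plus strand), a classic target of serum response factor, was at 7.33, 4.71 and 3.94 FPKM in CD36KO, 7.01, 6.81 and 10.7 FPKM in the libraries labelled CD36CKO and 4.69, 3.45 and 6.23 FPKM in WT. All 3 libraries labelled CD36CKO were above all 3 of WT, a log2 difference of 0.66 (SE 0.24, interval 0.12 to 1.20) that did not pass (adjusted p = 0.0954). Without WT 3 this difference was 0.84 and passed (adjusted p = 0.0323). CD36KO against WT stood at 0.12 (interval -0.42 to 0.66) and CD36KO against the libraries labelled CD36CKO at -0.54 (interval -1.09 to -0.0041, adjusted p = 0.225). Egr1 and Atf3 thus stood in opposite order in the means of both knockout labels, with Egr1 at 5.33 ± 1.78 FPKM in CD36KO and 8.16 ± 2.17 FPKM in the libraries labelled CD36CKO.

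Dusp1 (ENSMUSG00000024190, chromosome 17, 26724564 to 26781102, minus strand), the MAP kinase phosphatase among the 10, rose in CD36KO. Its level was 21.1, 23.9 and 23.8 FPKM in CD36KO, 19.4, 20.0 and 16.4 FPKM in the libraries labelled CD36CKO and 13.5, 12.1 and 18.5 FPKM in WT. The CD36KO libraries lay above the other 6, and WT 3 overlapped the libraries labelled CD36CKO. CD36KO exceeded WT by 0.63 in log2(FPKM + 1) (SE 0.15, adjusted p = 0.0305), 1.56 times the WT mean. The libraries labelled CD36CKO differed from WT by 0.33 (interval -0.01 to 0.68, adjusted p = 0.163). With no filter, with mitochondrial and haemoglobin genes removed and without CD36KO 3 and CD36CKO 3 together the calls of Klf4 and Dusp1 were lost too, at an adjusted p of up to 0.146 for Klf4 and 0.123 for Dusp1. The Dusp1 call was lost without WT 1 (adjusted p = 0.0892), WT 2 (0.0768), CD36KO 1 (0.0716), CD36KO 2 (0.0908) or CD36KO 3 (0.105), and without WT 3 Dusp1 passed in the libraries labelled CD36CKO too (0.50, 0.0141). Dusp1 as annotated overlaps Ergic1 on the opposite strand, which was at 6.52 to 8.15 FPKM. It also overlaps a long noncoding RNA on that strand (ENSMUSG00000120402) at 0.144 to 2.48 FPKM. Since counting by strand is not given, the Dusp1 values are uncertain too.

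The immediate early response genes Ier2 and Ier3 did not pass. Ier3 (ENSMUSG00000003541, chromosome 17, 36132576 to 36133815, plus strand), a regulator of cell survival, was at 19.9, 13.9 and 14.9 FPKM in CD36KO, 21.3, 16.6 and 18.7 FPKM in the libraries labelled CD36CKO and 21.7, 20.1 and 27.7 FPKM in WT. Every CD36KO library was below every WT library, at a log2 difference of -0.49 (SE 0.17, interval -0.87 to -0.12, adjusted p = 0.0807). Ier2 (ENSMUSG00000053560, chromosome 8, 85387960 to 85389483, minus strand), a nuclear protein gene, was at 33.1, 33.0 and 41.0 FPKM in CD36KO, 26.8, 23.8 and 30.7 FPKM in the libraries labelled CD36CKO and 31.4, 43.8 and 30.3 FPKM in WT. CD36KO lay above the libraries labelled CD36CKO in all libraries (0.38, interval 0.01 to 0.75, adjusted p = 0.214), and its log2 difference from WT was 0.03 (interval -0.34 to 0.40), which turned negative without WT 1, WT 3 or CD36KO 3.

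**Figure D2:**
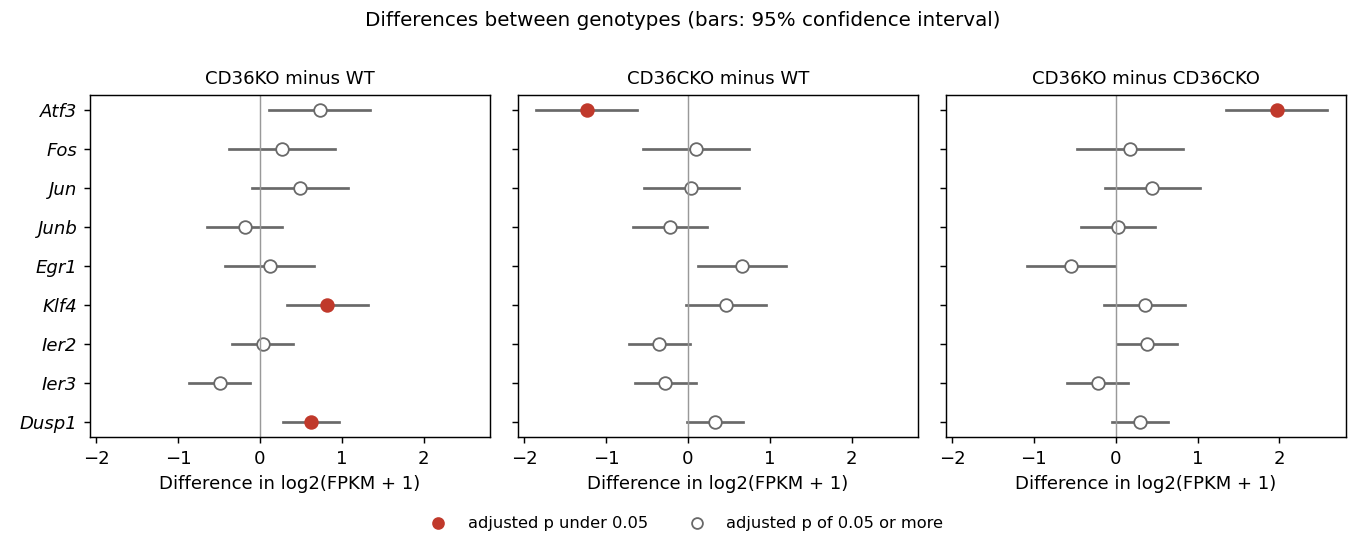
Difference in log2(FPKM + 1) of the 9 tested genes for CD36KO minus WT, CD36CKO minus WT and CD36KO minus CD36CKO, with the 95% confidence interval as a bar and filled points where the adjusted p was under 0.05. Klf4 (0.82) and Dusp1 (0.63) are filled in the first panel, and Atf3 is filled at -1.24 in the second and at 1.97 in the third.

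Counted together, 2 of the 9 tested members rose in CD36KO against WT and none fell, where 12.5% of all tested genes passed, 5.81% rose and 6.7% fell. In the libraries labelled CD36CKO against WT 0 rose and 1 fell, where 12.7% of all tested genes passed (5.36% rose and 7.32% fell). Between CD36KO and the libraries labelled CD36CKO 1 was higher and none was lower, where 4.53% of all tested genes passed (2.61% were higher and 1.93% lower). With 9 genes tested, each count is 1 or 2 calls, which is too few to set against those shares and no result about the group as a whole. The median log2 difference of the 9 was 0.27 in CD36KO against WT, where that of all tested genes was -0.01. It was 0.04 in the libraries labelled CD36CKO against WT, where that of all tested genes was 0.00. It was 0.29 between CD36KO and the libraries labelled CD36CKO (all tested genes 0.00), with 7 of the 9 above 0. Groups did not overlap for 3 of the 9 in CD36KO against WT (all tested genes, 35.2%), for 2 in the libraries labelled CD36CKO against WT (32.6%) and for 5 between CD36KO and the libraries labelled CD36CKO (36.6%). Both comparisons with WT share the same 3 WT libraries.

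WT 3 stood above the other WT libraries for most of these genes. Within WT, 9 of the 10 genes were highest in WT 3, all but Ier2, and 43.2% of all tested genes were highest there. In WT 3, 5 of the 9 tested members were at least 1.5 times the higher of WT 1 and WT 2, against 8.78% of all tested genes. The mean log2 level of the 9 tested members was 3.74, 3.89 and 3.72 in CD36KO 1 to 3, 3.43, 3.39 and 3.58 in the libraries labelled CD36CKO 1 to 3, and 3.35, 3.29 and 3.91 in WT 1 to 3. WT 3 thus lay with the CD36KO libraries, and WT 1 and WT 2 with the libraries labelled CD36CKO. The calls over all tested genes rose without WT 3. They went from 1527 to 3203 in CD36KO against WT and from 1547 to 3950 in the libraries labelled CD36CKO against WT. Passing without WT 3 is therefore not particular to these genes. Leaving out any single library other than WT 3 lowered the calls over all tested genes in each comparison with WT. They were 405 in CD36KO against WT without CD36KO 1 or CD36KO 3. In the libraries labelled CD36CKO against WT they were 330 without CD36CKO 2. A call lost on leaving out 1 library is therefore not particular to these genes either. In CD36CKO 3, 6 of the 10 genes were the highest of their group. In CD36KO the highest values were spread over replicate 2 (5 genes), replicate 1 (3) and replicate 3 (2).

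Other values moved with WT 3. Mitochondrially encoded transcripts took 8.89% of the reads in WT 3, against 6.02% in WT 1 and 4.55% in WT 2. The 8 cardiomyocyte markers summed to 12904 FPKM in WT 3, against 17949 and 18013 FPKM in WT 1 and WT 2, and the 7 smooth muscle and pericyte markers to 356 FPKM, against 872 and 872 FPKM. The 8 fibroblast markers summed to 528 FPKM in WT 3, against 398 and 400 FPKM. The 12 heat shock genes, some of which also respond to handling and heat, summed to 1589 FPKM in WT 3, against 1974 and 2196 FPKM. This sum is weighted to abundant genes, with Hspb1 at 608, Hsp90ab1 at 496 and Hspa8 at 225 FPKM in WT 3. Most tested heat shock genes, these among them, were lowest in WT 3 within WT. Bag3 was highest there (49.7 FPKM, against 45.8 and 46.6 FPKM), and Dnajb1 lay between WT 1 and WT 2. A response to handling was not tested. The part of these shifts in the levels of immediate early genes was not tested.

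**Figure D3:**
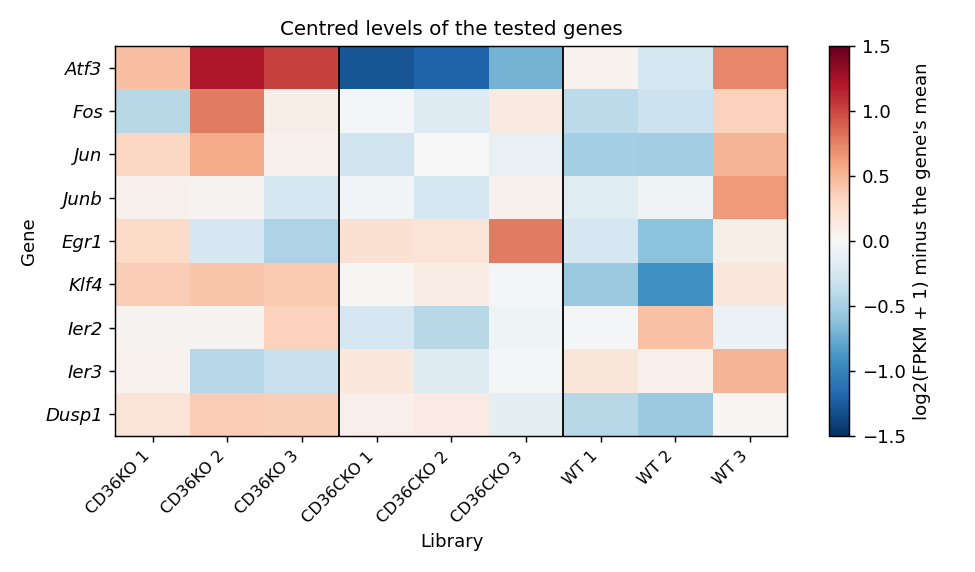
Level of the 9 tested genes in each library as log2(FPKM + 1) minus the gene's mean over the 9 libraries, with red above and blue below that mean and lines between genotypes. The columns of WT 1 and WT 2 are mostly blue and that of WT 3 mostly red, and the Atf3 row is red in CD36KO and blue in the libraries labelled CD36CKO.

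Of 28 further immediate early genes tested, 2 rose and 2 fell in CD36KO against WT, with a median log2 difference of 0.07. Their count is near the 12.5% of all tested genes that passed in that comparison. The counts of this list and of the gene lists that follow, the cell markers apart, are 5 calls or fewer per comparison. They are given as a description, with nothing particular to a list read from them. Klf10, a Krüppel-like factor induced by TGF-beta, rose to 11.4, 9.61 and 8.37 FPKM, against 6.80, 5.66 and 6.01 FPKM in WT (0.59, adjusted p = 0.0269), and Plk2, a polo-like kinase gene, rose by 0.63 (adjusted p = 0.0306). Gadd45b, which is induced by stress and growth arrest, fell to 6.34, 5.04 and 4.79 FPKM in CD36KO, against 9.97, 11.8 and 8.16 FPKM in WT (-0.77, adjusted p = 0.0174), and Cebpd, a leucine zipper factor of the acute phase, fell to 2.69, 2.23 and 2.61 FPKM in CD36KO, against 4.43, 6.10 and 15.2 FPKM in WT (-1.29, adjusted p = 0.0347). Without WT 3 the Cebpd difference was -0.83 and still passed. Of these calls Gadd45b was lost without WT 1, CD36KO 2 or CD36KO 3, Klf10 without WT 2, CD36KO 1 or CD36KO 2, and Plk2 and Cebpd without 5 libraries each, at an adjusted p of up to 0.112. All 4 were also lost with no filter and without CD36KO 3 and CD36CKO 3 together, and Cebpd with mitochondrial and haemoglobin genes removed, at an adjusted p of up to 0.142.

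In the libraries labelled CD36CKO against WT, 2 of the 28 rose and 3 fell, with a median of -0.14, where 12.7% of all tested genes passed. Klf10 rose here too (0.88, adjusted p = 0.00594), and its call held in all 20 other settings. Zfp36l1, which binds messenger RNAs and hastens their decay, rose to 47.4, 55.5 and 43.9 FPKM in the libraries labelled CD36CKO, against 30.0, 25.7 and 36.2 FPKM in WT (0.67, adjusted p = 0.0306). Ccn2, a matricellular growth factor and YAP target, fell to 23.4, 17.8 and 16.3 FPKM in the libraries labelled CD36CKO, against 55.2, 40.0 and 179 FPKM in WT (-1.90, adjusted p = 0.0304). Cebpb (-1.02, adjusted p = 0.0442) and Csrnp1 (-0.83, adjusted p = 0.0474) fell as well, and both were highest in WT 3, at 39.7 and 7.45 FPKM. Without WT 3 the differences still passed but were -1.27 for Ccn2 and -0.64 for Cebpb. In all, 24 of the 28 were highest in WT 3 within WT, and 16 of them were at least 1.5 times the higher of WT 1 and WT 2. Zfp36l1 was lost without WT 1, WT 2, CD36CKO 1 or CD36CKO 2, Ccn2 without WT 1 or any one library labelled CD36CKO, and Cebpb and Csrnp1 without 7 libraries each, at an adjusted p of up to 0.15. These 4 were also lost with no filter and without CD36KO 3 and CD36CKO 3 together, and Ccn2, Cebpb and Csrnp1 with mitochondrial and haemoglobin genes removed, at an adjusted p of up to 0.169. Between CD36KO and the libraries labelled CD36CKO, Gadd45b alone passed among the 28 (-1.03, adjusted p = 0.0120), and it was lost without CD36KO 3 (adjusted p = 0.0613) and without CD36KO 3 and CD36CKO 3 together (0.124).

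Among 8 other MAP kinase phosphatases tested, Dusp8, which acts on JNK and p38, stood in the same order as Atf3. It was at 6.56, 7.26 and 6.76 FPKM in CD36KO, 2.66, 3.03 and 2.90 FPKM in the libraries labelled CD36CKO and 5.64, 4.84 and 4.77 FPKM in WT, with no overlap between any groups. Dusp8 rose in CD36KO against WT (0.37, adjusted p = 0.0368), fell in the libraries labelled CD36CKO (-0.65, adjusted p = 0.00468), and differed between both knockout labels by 1.02 (adjusted p = 0.00804), a call that held in all 19 other settings that kept the gene. The call of its rise in CD36KO was lost without any of 6 single libraries (WT 2, each CD36KO library, CD36CKO 2 and CD36CKO 3), at an adjusted p of up to 0.118. It was also lost with no filter, a replicate block, voom and only the 2 genotypes compared. The same held with mitochondrial and haemoglobin genes removed and without CD36KO 3 and CD36CKO 3 together (adjusted p of up to 0.142). The call of its fall in the libraries labelled CD36CKO was lost with mitochondrial and haemoglobin genes removed (adjusted p = 0.0563). Dusp7, an ERK phosphatase, rose in the libraries labelled CD36CKO to 13.2, 11.2 and 12.5 FPKM, against 6.94, 7.40 and 7.63 FPKM in WT (0.68, adjusted p = 0.00805), a call lost without CD36KO 3 and CD36CKO 3 together (adjusted p = 0.0560). Dusp10 was at 0.49 in CD36KO against WT (adjusted p = 0.0608). Of the 8, 1 rose and 0 fell in CD36KO and 1 rose and 1 fell in the libraries labelled CD36CKO.

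Of 8 further AP-1 and small Maf genes tested, 0 passed in any comparison by limma. In CD36KO against WT, Jdp2, a repressor of AP-1, was at -0.65 (adjusted p = 0.0984) and Fosl2 at 0.35 (0.402). In the libraries labelled CD36CKO, Jund, the Jun gene of resting cells, was at 80.2, 55.8 and 75.0 FPKM, against 102, 132 and 88.4 FPKM in WT (-0.60, adjusted p = 0.0537), and Atf7 was at 0.30 (0.163). At an unadjusted p under 0.05 by limma, 1 of the 8 was counted in CD36KO and 1 in the libraries labelled CD36CKO, both against WT. Between both knockout labels 2 were counted. Such p-values were frequent over all 12206 tested genes. In the same order of comparisons, Atf3 at 0.0249 ranked 2761, Cd36 at 0.0494 ranked 3943 and Egr1 at 0.0486 ranked 2631. Of 22 upstream kinases and factors tested, 2 rose in CD36KO against WT, Crem, a cAMP response factor (0.43, adjusted p = 0.0301), and Mapk8, which encodes the Jun kinase JNK1 (0.40, adjusted p = 0.0392). In the libraries labelled CD36CKO, 1 fell, Rps6ka1, a ribosomal S6 kinase gene downstream of ERK (-0.68, adjusted p = 0.0104), and Rps6ka4 was at -0.35 (0.0693). The Rps6ka1 call was lost with mitochondrial and haemoglobin genes removed (adjusted p = 0.0813). The calls of Crem and Mapk8 were lost without 6 and 7 single libraries, at an adjusted p of up to 0.127. Both were also lost with no filter, with a replicate block, without CD36KO 3 and CD36CKO 3 together and with only the 2 genotypes compared. Mapk8 was lost with quantile normalization too, and its adjusted p over all settings reached 0.162.

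Atf3 is also a target of the integrated stress response, in which phosphorylated eIF2 favours the translation of Atf4. Of 12 genes of that list tested, 1 rose and 2 fell in the libraries labelled CD36CKO against WT. Atf4 itself fell to 41.3, 34.5 and 38.8 FPKM, against 51.4, 55.2 and 60.9 FPKM in WT (-0.54, adjusted p = 0.0217), and Ppp1r15a, a subunit of the eIF2 phosphatase, fell by 0.71 (adjusted p = 0.0225). Vldlr, a lipoprotein receptor gene on that list, rose (0.41, adjusted p = 0.0352). In CD36KO against WT, Ddit4, an inhibitor of mTORC1, fell to 16.9, 17.3 and 18.3 FPKM, against 26.6, 35.8 and 45.9 FPKM in WT (-0.97, adjusted p = 0.0201), and Vldlr rose (0.42, adjusted p = 0.0333). Ddit3, a leucine zipper gene of the same response, stood at -0.33 in CD36KO against WT (adjusted p = 0.141) and at 0.07 in the libraries labelled CD36CKO (0.759). Between both knockout labels Ddit4 was lower in CD36KO (-1.15, adjusted p = 0.0184), a call lost without any of 5 single libraries (adjusted p of up to 0.0821). The calls of the falls of Atf4, Ppp1r15a and, in CD36KO, Ddit4 were each lost with mitochondrial and haemoglobin genes removed. The adjusted p was up to 0.201 for Atf4 and 0.151 for Ppp1r15a. Each was also lost without CD36KO 3 and CD36CKO 3 together. The Atf4 call was also lost with quantile normalization and with only the 2 genotypes compared, and those of Ppp1r15a and Ddit4 with no filter. Among single libraries, the Atf4 call was lost without WT 2 or CD36CKO 2 and that of Ppp1r15a without any one library labelled CD36CKO. Ddit4 was lost without WT 2 or any one CD36KO library. Vldlr was lost without 5 libraries in CD36KO and 7 in the libraries labelled CD36CKO, at an adjusted p of up to 0.123. Both Vldlr calls were also lost with no filter, a replicate block, only the 2 genotypes compared and without CD36KO 3 and CD36CKO 3 together (up to 0.128).

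Of 10 heat shock genes tested, 1 fell in CD36KO against WT and 0 passed in the libraries labelled CD36CKO by limma. In the latter 3 had an unadjusted p under 0.05. There Cd36, at an unadjusted p of 0.0494, ranked 3943 of all 12206 tested genes, so 3 of 10 is near the share of all genes. Hspb1, a small heat shock protein gene of muscle, fell to 353, 322 and 358 FPKM in CD36KO, against 700, 837 and 608 FPKM in WT (-1.04, adjusted p = 0.0114), a call lost without CD36KO 3 and CD36CKO 3 together (adjusted p = 0.0719). It was at -0.49 in the libraries labelled CD36CKO (adjusted p = 0.107), while Bag3 was at -0.27 in CD36KO (0.0932) and Hsph1 at 0.43 in the libraries labelled CD36CKO (0.0992).

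The genes whose profile lay closest to that of Atf3 were Pbk, Rrm2, Tcf19, Melk and Mybl2. Likeness was the mean absolute difference between centred log2(FPKM + 1) values over the 9 libraries, and it was 0.25 for Pbk, a kinase gene, 0.26 for Rrm2, which encodes a subunit of ribonucleotide reductase, and 0.32 each for Tcf19, Melk and Mybl2. Pbk was at 9.31, 11.2 and 12.0 FPKM in CD36KO, 2.22, 1.19 and 3.47 FPKM in the libraries labelled CD36CKO and 6.61, 9.52 and 11.5 FPKM in WT. Rrm2 was at 18.6, 20.7 and 21.2 FPKM in CD36KO, 5.75, 4.79 and 9.89 FPKM in the libraries labelled CD36CKO and 13.9, 16.2 and 25.9 FPKM in WT. Both were lowest in the libraries labelled CD36CKO and higher in WT 3 than in WT 1 and WT 2, as Atf3 was. The 5 genes closest to Fos were Slc46a3 (0.15), Qpct (0.17), Ctps2 (0.17), Tspyl5 (0.17) and Serpinb6b (0.17).

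**Figure D4:**
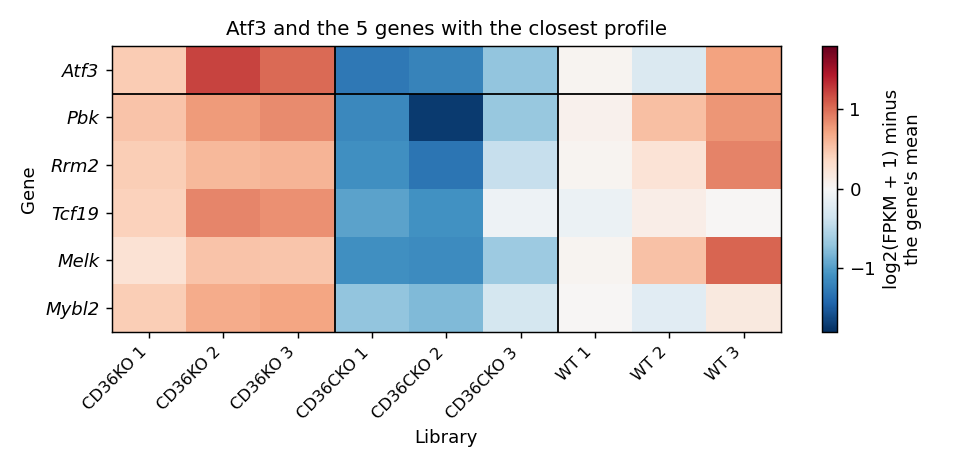
Level of Atf3 (top row) and the 5 protein-coding genes with the closest profile in each library, as log2(FPKM + 1) minus each gene's mean, with lines between genotypes. All 6 rows are blue in CD36CKO 1 and CD36CKO 2 and red in the 3 CD36KO libraries, and the 5 genes were chosen by these same values.

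Markers of the cells that a whole heart holds also differed between genotypes. Of all tested genes, 5.81% rose and 6.7% fell in CD36KO against WT. In the libraries labelled CD36CKO against WT, 5.36% rose and 7.32% fell. Outside the atrial markers the counts below are small and are given as a description. The 8 cardiomyocyte markers summed to 10558 to 13221 FPKM in CD36KO, 10346 to 13293 FPKM in the libraries labelled CD36CKO and 12904 to 18013 FPKM in WT. Of these 8, 1 rose and 2 fell in CD36KO (median log2 difference -0.54) and 1 rose and 1 fell in the libraries labelled CD36CKO (median -0.43), both against WT. All 8 atrial markers fell in CD36KO and 5 of 8 in the libraries labelled CD36CKO, with sums of 208 to 1439 FPKM in CD36KO, 711 to 2195 FPKM in the libraries labelled CD36CKO and 4315 to 7025 FPKM in WT. Of 7 endothelial markers, 2 rose in CD36KO, and their sums were 300 to 356 FPKM in CD36KO, 228 to 258 FPKM in the libraries labelled CD36CKO and 245 to 264 FPKM in WT. Of 8 macrophage markers 2 rose in CD36KO, while their sums were 57.4 to 65.2 FPKM in CD36KO, 44.9 to 57.1 FPKM in the libraries labelled CD36CKO and 66.4 to 97.2 FPKM in WT. The 6 neutrophil markers summed to 18.2 to 31.2 FPKM in CD36KO, 19.6 to 27.0 FPKM in the libraries labelled CD36CKO and 31.9 to 49.1 FPKM in WT, and 2 of the 5 tested fell against WT in each. The 8 fibroblast markers summed to 379 to 426 FPKM in CD36KO, 271 to 541 FPKM in the libraries labelled CD36CKO and 398 to 528 FPKM in WT, with 1 of 8 higher against WT in each. Of 6 tested smooth muscle and pericyte markers 2 rose and 1 fell against WT in each, and the sums of all 7 were 244 to 502 FPKM in CD36KO, 340 to 509 FPKM in the libraries labelled CD36CKO and 356 to 872 FPKM in WT. By limma 0 of 6 tested erythroid markers passed against WT. At an unadjusted p under 0.05, 6 were counted in CD36KO and 1 in the libraries labelled CD36CKO. Such p-values were frequent over all 12206 tested genes. Atf3 at 0.0249 ranked 2761 in CD36KO against WT, and Cd36 at 0.0494 ranked 3943 in the libraries labelled CD36CKO. The erythroid sums were 3178 to 5103 FPKM in CD36KO, 4331 to 5509 FPKM in the libraries labelled CD36CKO and 5935 to 9212 FPKM in WT. Mitochondrially encoded transcripts took 11.1 to 14.3% of reads in CD36KO, 10.3 to 12.2% in the libraries labelled CD36CKO and 4.55 to 8.89% in WT. None of these markers was at 0 in all libraries. Their part in the differences of Atf3, Klf4 and Dusp1 was not tested.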

How the data were processed

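RNA was sequenced from whole hearts of P1 mice, in 3 libraries for each of 3 genotypes. The authors deposited 1 table of FPKM values per gene. The submitters' processing notes name CASAVA, HISAT2, HISAT and TopHat2 with no versions or roles, and the sources used here give neither the build nor the counting. In every library 100% of values times gene length were whole multiples of 1 step (tolerance 0.05 reads), so reads could be recovered. They show counting precision: the floor of 3 reads is below 1 FPKM for a gene of 1 kb.

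Differences were tested with limma 3.58.1 (R 4.3.3, trended variance) on log2(FPKM + 1), a scale that understates changes of low genes. All 9 libraries shared 1 fit with a mean per genotype, over 12206 genes with a mean of at least 1 FPKM. P-values were Benjamini-Hochberg adjusted over all of them, with a threshold of 0.05 and 95% intervals. The procedure was tested on simulated data. The fit has no replicate block. Alternatives covered pseudocount, filter, scaling, block, weights, voom on recovered reads, and libraries left out. Of each other list, the text names the genes that passed and the 2 of smallest p in each comparison with WT. Likeness to Atf3 or Fos was ranked over tested protein-coding genes and 5 were named for each. The members and lists were chosen with earlier results of these data known. Promoters and motifs came from RefSeq (GRCm38.p6).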

Additional observations from a re-analysis of the deposited data

Results flagged for a closer look

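Atf3 is singled out because its difference from WT was not the same under both knockout labels. The difference from WT was 0.73 in CD36KO and -1.24 in the libraries labelled CD36CKO, both in log2(FPKM + 1) with SE 0.28. The test of the difference between them is the direct comparison of CD36KO with the libraries labelled CD36CKO, in which WT cancels out, and it gave 1.97 (SE 0.28, adjusted p = 0.0103 by limma), with Atf3 higher in all 3 CD36KO libraries than in all 3 libraries labelled CD36CKO. No other tested member passed in that comparison.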

How the results depend on the processing

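The members called numbered 2 in CD36KO against WT, 1 in the libraries labelled CD36CKO against WT and 1 in CD36KO against the libraries labelled CD36CKO. In the same order they numbered 0, 0 and 1 with no filter on low values, 0, 0 and 1 with mitochondrial and haemoglobin genes removed, 6, 5 and 2 with library weights, 0, 0 and 0 without both Y-linked libraries and 0, 1 and 2 with only the 2 genotypes compared. Leaving out 1 library gave 0 to 4, 0 to 4 and 0 to 1 members. The 4 were reached without WT 3 in each comparison with WT, where 3203 and 3950 of all tested genes passed. The cause was not tested. Both pseudocounts, the filter at 5 FPKM, quantile normalization and voom gave 2, 1 and 1. The replicate block gave 0, 1 and 1, but same-numbered libraries deviated together with r between -0.43 and 0.14, so the numbers do not show pairing. Over all genes, where 1527, 1547 and 553 passed, no filter gave 743, 753 and 169, library weights 6849, 6124 and 2417, and the fit without Y-linked libraries 200, 412 and 48. Removing mitochondrial and haemoglobin genes moved the median of all genes to 0.10, 0.22 and -0.11 and the calls to 711 higher and 320 lower, 1615 and 407, and 152 and 209, where the whole table had 709 and 818, 654 and 893, and 318 and 235. In the libraries labelled CD36CKO against WT, voom gave 1077 higher and 808 lower.

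Sign changes were seen among members that had not passed. Junb was at 0.10 with library weights in CD36KO against WT, at 0.060 with weights and 0.018 with mitochondrial and haemoglobin genes removed in the libraries labelled CD36CKO against WT, and at -0.085 with those genes removed and -0.023 by voom between both knockout labels. Ier2 in CD36KO against WT was at -0.067 without the Y-linked libraries. Leaving out 1 library, CD36KO against WT ranged from -0.040 to 0.56 for Fos, -0.35 to 0.061 for Junb, -0.098 to 0.29 for Egr1 and -0.067 to 0.20 for Ier2. The libraries labelled CD36CKO against WT ranged from -0.043 to 0.33 for Fos, -0.13 to 0.38 for Jun and -0.38 to 0.030 for Junb, and CD36KO against the libraries labelled CD36CKO from -0.13 to 0.46 for Fos and -0.060 to 0.14 for Junb. Fosb rested on 7 to 43 reads per library and was not tested.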
